A study of Mus musculus with 17 samples.

Results

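Class II cytokine receptors were followed across sorted stem cells of mouse epidermis. The set was 8 genes of the 48820 gene identifiers in the deposited count table, namely Ifngr1, Ifngr2, Ifnar1, Ifnar2, Il20ra, Il20rb, Il10rb and Il22ra1. They were found by symbol in the table, and all 8 held enough counts to be tested. The set was chosen by family and in part selected on measured levels, because Il20ra and Ifngr1 were already known to separate Lrig1 and Lgr6 cells from Lgr5 cells. Differences between populations in these 8 genes are therefore given as a description without a test, and tests are given for the genotype, which played no part in the choice.

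The mice were C57BL/6, aged 3 months, and carried EGFP-CreERT2 in the Lrig1, Lgr5 or Lgr6 locus, so that the marked cells are green and hold a Cre recombinase that 4-hydroxytamoxifen (4-OHT) activates. All mice received 4-OHT. Controls were Pelo fl/+ and are labelled WT, so they too carried a floxed allele and the Cre, and mutants were Pelo fl/fl, labelled Pelo -/- here. Each library came from 1000 GFP+ epidermal cells, giving WT Lrig1 with 2 libraries and WT Lgr6, WT Lgr5, Pelo -/- Lrig1, Pelo -/- Lgr6 and Pelo -/- Lgr5 with 3 each, 17 in all. In the follicle, Lrig1 marks the junctional zone of the upper follicle, Lgr6 the isthmus and Lgr5 the lower bulge and hair germ, and Pelo encodes a factor that releases stalled ribosomes. The time between treatment and collection, and whether replicates came from separate animals or pools, is unknown from the labels, so p-values measure the spread between these libraries, which may be technical.

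Class II cytokine receptors work as pairs of different chains that sit on Janus kinases and pass signals to STAT transcription factors. Ifngr1 binds interferon gamma and Ifngr2 completes its receptor. Ifnar1 and Ifnar2 form the receptor of the type I interferons, whose signal reaches target genes with Irf9. Il20ra with Il20rb receives IL-19, IL-20 and IL-24, Il22ra1 with Il20rb receives IL-20 and IL-24, and Il22ra1 with Il10rb receives IL-22. These IL-20 family receptors act mostly through Stat3 and are known in skin for driving keratinocyte growth, antimicrobial peptides and wound keratins. Il10rb is also the shared chain of the IL-10 and interferon lambda receptors.

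Promoter sequence was set out for 4 members, the pair with the largest gap between populations (Ifngr1 and Il20ra) and a pair whose levels overlapped between populations (Ifnar1 and Il22ra1). Each stretch holds the 250 bases before the RefSeq start on GRCm38.p6, written 5′ to 3′ on the gene's strand, which is plus for all 4. They lie at chr10:19591699-19591948, chr10:19712337-19712586, chr16:91484965-91485214 and chr4:135727909-135728158. The last bases of the Il20ra window fall inside the GENCODE gene model, which starts at 19712570. Capitals mark matches on either strand to the motifs searched.
Ifngr1: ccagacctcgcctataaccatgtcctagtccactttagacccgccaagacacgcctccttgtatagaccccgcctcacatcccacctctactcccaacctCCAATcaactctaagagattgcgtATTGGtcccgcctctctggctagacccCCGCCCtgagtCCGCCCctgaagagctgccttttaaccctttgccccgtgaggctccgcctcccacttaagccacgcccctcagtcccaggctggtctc
Il20ra: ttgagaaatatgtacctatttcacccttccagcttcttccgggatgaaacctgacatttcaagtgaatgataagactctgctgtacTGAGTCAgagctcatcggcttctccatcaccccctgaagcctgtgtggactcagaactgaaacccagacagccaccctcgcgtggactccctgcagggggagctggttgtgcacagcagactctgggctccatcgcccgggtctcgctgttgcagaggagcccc
Ifnar1: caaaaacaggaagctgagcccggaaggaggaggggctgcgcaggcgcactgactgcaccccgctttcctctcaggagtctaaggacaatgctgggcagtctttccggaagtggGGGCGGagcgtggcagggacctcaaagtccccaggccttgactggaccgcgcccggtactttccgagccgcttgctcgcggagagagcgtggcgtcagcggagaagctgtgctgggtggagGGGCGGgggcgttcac
Il22ra1: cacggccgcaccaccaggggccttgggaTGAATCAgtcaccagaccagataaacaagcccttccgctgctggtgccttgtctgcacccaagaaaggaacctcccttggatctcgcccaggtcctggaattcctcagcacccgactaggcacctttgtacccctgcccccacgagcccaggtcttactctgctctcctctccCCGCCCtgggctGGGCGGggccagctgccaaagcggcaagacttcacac

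The motifs were AP-1 (TGANTCA), the gamma-activated site GAS (TTCNNNGAA), the interferon-stimulated response element ISRE (GAAA, any 2 bases, GAAA), the GC box (GGGCGG), the CCAAT box (CCAAT) and the TATA box (TATAAA). Of 32851 RefSeq windows of the same length they were present in 6.75%, 7.02%, 2.98%, 32.7%, 33.8% and 12.4%. Ifngr1 held 2 GC boxes, 99 and 88 bases before the start, and 2 CCAAT boxes, at 150 and 126. Il20ra held 1 AP-1 match, TGAGTCA, 164 bases before the start, and none of the others. Ifnar1 held 2 GC boxes, at 137 and 16. Il22ra1 held 1 AP-1 match, TGAATCA, at 222 and 2 GC boxes, at 49 and 37. Matches in these 4 windows did not overlap each other. Of 8 members 7 had a window, and in the 3 not printed Ifngr2 held 4 GC boxes and 1 CCAAT box, Ifnar2 held 1 GAS match and Il20rb held 1 GC box. GC content was 59.2% for Ifngr1, 55.2% for Il20ra, 65.6% for Ifnar1 and 62.4% for Il22ra1, where the median window had 52.4%. A match describes the letters and is no evidence of binding.

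Total counts ran from 9647507 to 28098841, and the 6 Lgr5 libraries held 9647507 to 17219054. Levels are CPM, counts scaled to library size, with TMM factors (trimmed mean of M-values). Pelo itself overlapped between genotypes in every population, at 3.72 to 6.05 CPM in WT and 0.483 to 3.82 CPM in Pelo -/- Lrig1, 2.02 to 5.39 and 3.10 to 4.94 CPM in Lgr6, and 5.90 to 17.4 and 11.8 to 23.6 CPM in Lgr5, so gene-level counts did not show the deletion and the part of Pelo that is removed is unknown from the labels. The Lgr5 gene stood at 276 to 570 CPM in Lgr5 libraries and at 0.0531 to 29.4 CPM elsewhere. The Lgr6 gene ranged over 17.7 to 108 CPM in Lgr5 and 58.3 to 197 CPM elsewhere. The Lrig1 gene had 39.3 to 41.7 CPM in WT Lrig1 and 7.42 to 37.7 CPM in Pelo -/- Lrig1. In each genotype it was higher in Lgr6 libraries, at 45.3 to 60.02 CPM in WT and 39.3 to 58.8 CPM in Pelo -/-. Lgr5 libraries had 10.4 to 18.1 CPM in WT and 10.1 to 16.7 CPM in Pelo -/-. The lowest Pelo -/- Lrig1 library lay below these. The Lrig1 gene was thus not highest in the libraries labelled Lrig1. WT Lgr5 replicate 3 stood apart, with 16.6% of its counts in a single predicted gene against 1.06% to 6.60% for the most abundant gene of the other 16 libraries. Summed markers of keratinocytes (13 genes) ran from 24144 to 35664 CPM in the 11 Lrig1 and Lgr6 libraries and from 6245 to 12734 CPM in the 6 Lgr5 libraries, so the label epidermis held in each. Other cell types ran in the same order of sets at 12.9 to 41.4 and 66.7 to 341 CPM for melanocytes (10 genes), 7.16 to 52.9 and 53.4 to 144 CPM for fibroblasts (10 genes), 3.21 to 13.9 and 12.3 to 38.4 CPM for endothelium (10 genes), 7.28 to 40.4 and 12.4 to 30.2 CPM for Langerhans cells and macrophages (14 genes), and 53.5 to 135 and 18.1 to 85.2 CPM for T cells (14 genes), and no marker was at 0 throughout either set. Their part in the differences between populations below was not tested, and in bulk libraries fewer cells of a type and less RNA per cell cannot be told apart.

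The interferon gamma receptor was the most unequal between populations among the interferon receptors. Ifngr1, its ligand-binding chain, had 386 and 232 CPM in WT Lrig1, 465, 338 and 274 CPM in Pelo -/- Lrig1, 308, 173 and 406 CPM in WT Lgr6, and 288, 349 and 289 CPM in Pelo -/- Lgr6. Lgr5 libraries had 10.005, 2.76 and 7.22 CPM in WT and 11.9, 11.5 and 10.1 CPM in Pelo -/-. All 11 Lrig1 and Lgr6 libraries, with a median of 308 CPM, lay above all 6 Lgr5 libraries, with a median of 10.1 CPM, and the lowest of the former was 173 CPM. Log2 differences (± SE, edgeR) were 5.54 ± 0.50 for WT Lrig1 and 5.47 ± 0.49 for WT Lgr6 against WT Lgr5. In the Pelo -/- groups they were 5.01 ± 0.48 and 4.79 ± 0.47. Both WT differences share the WT Lgr5 libraries and both Pelo -/- differences the Pelo -/- Lgr5 libraries, so the values of a genotype are not independent of each other.

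Ifngr2, the second chain of the same receptor, differed by less. It had 25.1 and 32.5 CPM in WT Lrig1, 40.9, 22.02 and 16.6 CPM in Pelo -/- Lrig1, 47.4, 29.2 and 45.7 CPM in WT Lgr6, and 32.0, 28.6 and 25.5 CPM in Pelo -/- Lgr6. Levels in Lgr5 libraries were 2.57, 17.6 and 3.06 CPM in WT and 11.4, 5.32 and 15.3 CPM in Pelo -/-. WT Lgr5 replicate 2, at 17.6 CPM, reached above Pelo -/- Lrig1 replicate 3, at 16.6 CPM, so the 2 sets of libraries overlapped by this pair alone. Log2 differences were 1.90 ± 0.66 for WT Lrig1, 2.40 ± 0.62 for WT Lgr6, 1.31 ± 0.60 for Pelo -/- Lrig1 and 1.43 ± 0.60 for Pelo -/- Lgr6 against Lgr5 of the same genotype. Without WT Lgr5 replicate 2 the WT values were 3.41 and 3.78, and without WT Lgr5 replicate 3 they were 1.48 and 1.88.

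The type I interferon receptor showed no such order. Ifnar1 had 27.2 and 6.09 CPM in WT Lrig1, 9.37, 14.5 and 15.9 CPM in Pelo -/- Lrig1, 14.3, 26.1 and 19.9 CPM in WT Lgr6, 24.3, 17.9 and 11.8 CPM in Pelo -/- Lgr6, 27.0, 15.1 and 11.6 CPM in WT Lgr5, and 21.9, 2.34 and 21.3 CPM in Pelo -/- Lgr5. Its ranges overlapped in every comparison of populations, and its log2 differences against Lgr5 were -0.11 ± 0.74, 0.16 ± 0.66, -0.20 ± 0.66 and 0.24 ± 0.66 in WT Lrig1, WT Lgr6, Pelo -/- Lrig1 and Pelo -/- Lgr6. Ifnar2, its high-affinity chain, was low throughout, at 1.59 to 7.67 CPM (median 5.54) in Lrig1 and Lgr6 libraries and 1.69 to 6.23 CPM (median 3.61) in Lgr5 libraries. In WT the Lgr5 libraries lay lowest, at 3.31, 3.46 and 1.69 CPM against 5.57 and 6.91 CPM in Lrig1 and 5.37, 5.85 and 5.54 CPM in Lgr6, with log2 differences of 1.14 ± 0.84 and 0.98 ± 0.77. The Pelo -/- libraries overlapped, with values of -0.23 ± 0.76 and -0.28 ± 0.76.

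Among the IL-20 receptor chains Il20ra had the widest gap of all 8 members. It had 176 and 123 CPM in WT Lrig1, 158, 140 and 150 CPM in Pelo -/- Lrig1, 75.2, 53.4 and 84.7 CPM in WT Lgr6, and 98.01, 143 and 110 CPM in Pelo -/- Lgr6. Lgr5 libraries had 1.08, 0.128 and 0.711 CPM in WT and 0.352, 0.993 and 0.161 CPM in Pelo -/-. These Lgr5 levels rest on 2 to 16 counts a library, where the others had 1059 to 2945 counts. Log2 differences against Lgr5 were 7.86 ± 0.65 for WT Lrig1, 6.78 ± 0.61 for WT Lgr6, 8.25 ± 0.65 for Pelo -/- Lrig1 and 7.89 ± 0.65 for Pelo -/- Lgr6. Il20ra was also the member whose WT Lrig1 libraries lay wholly above WT Lgr6, by 1.07 ± 0.51 in log2, while in Pelo -/- the libraries of these populations overlapped.

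Il20rb, the chain that Il20ra and Il22ra1 share, was detected in every population and higher outside Lgr5 cells. It had 126 and 145 CPM in WT Lrig1, 148, 172 and 146 CPM in Pelo -/- Lrig1, 155, 139 and 126 CPM in WT Lgr6, and 175, 229 and 194 CPM in Pelo -/- Lgr6. Levels in Lgr5 libraries were 25.9, 14.04 and 11.4 CPM in WT and 25.5, 23.8 and 53.4 CPM in Pelo -/-. The 11 libraries, at 126 CPM or more, lay above the 6 Lgr5 libraries, which reached 53.4 CPM in Pelo -/- replicate 3. Log2 differences against Lgr5 were 2.99 ± 0.42, 3.03 ± 0.40, 2.18 ± 0.39 and 2.54 ± 0.39 in WT Lrig1, WT Lgr6, Pelo -/- Lrig1 and Pelo -/- Lgr6.

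Il10rb, the accessory chain of IL-22, IL-10 and interferon lambda receptors, had 9.17 and 6.33 CPM in WT Lrig1, 8.59, 11.3 and 10.7 CPM in WT Lgr6 and 1.62, 0.449 and 0.929 CPM in WT Lgr5. The Pelo -/- libraries had 1.31, 4.89 and 8.88 CPM in Lrig1, 7.78, 5.87 and 5.15 CPM in Lgr6 and 4.34, 1.77 and 2.63 CPM in Lgr5. The WT Lgr5 libraries lay below all other WT libraries, whereas among the Pelo -/- libraries Lrig1 replicate 1 was the lowest. The Lgr5 levels of Il10rb rest on 7 to 74 counts a library, where the others had 24 to 225 counts. Log2 differences against Lgr5 were 2.95 ± 0.87 and 3.34 ± 0.84 in WT and 0.78 ± 0.77 and 1.10 ± 0.77 in Pelo -/-. Il22ra1, the ligand-binding chain for IL-22, was close to the detection limit everywhere, with 1 to 55 counts a library. Its levels ran from 0.0484 to 2.92 CPM (median 0.437) in Lrig1 and Lgr6 libraries and from 0.411 to 1.21 CPM (median 0.976) in Lgr5 libraries, and no difference between populations was detectable at this depth.

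**Figure D1:**
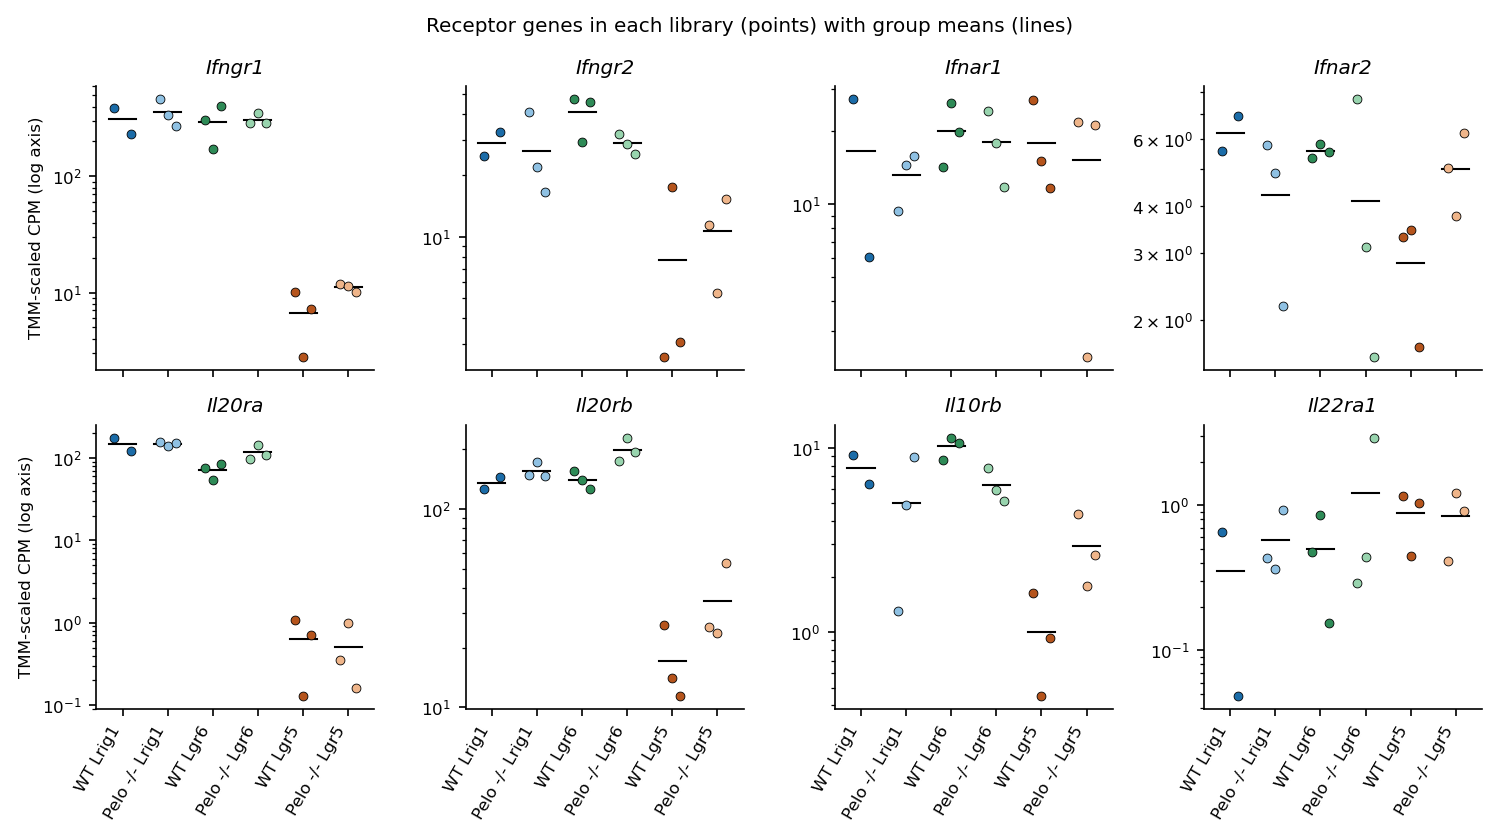
Levels of the 8 receptor genes (TMM-scaled CPM, log axis) in each of the 17 libraries by group of population and genotype; each point is a library and each bar a group mean. The 11 Lrig1 and Lgr6 libraries sit at 173 to 465 CPM for Ifngr1 and 53.4 to 176 CPM for Il20ra, above all 6 Lgr5 libraries, while Ifnar1 and Il22ra1 overlap.

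Counted over the set, 6 of 8 members lay wholly above Lgr5 in WT Lrig1 and 6 of 8 in WT Lgr6, namely Ifngr1, Ifngr2, Ifnar2, Il20ra, Il20rb and Il10rb in each. Over all 30405 genes tested, the groups did not overlap for 45.0% in WT Lrig1 against WT Lgr5 (19.7% higher) and for 29.8% in WT Lgr6 against WT Lgr5 (17.2% higher). Among Pelo -/- libraries 4 of 8 lay above Lgr5 in Lrig1 (background 32.1%, 14.3% higher) and 5 of 8 in Lgr6 (background 32.8%, 15.5% higher), the same 4, Ifngr1, Ifngr2, Il20ra and Il20rb, with Il10rb in Lgr6 only. Between Lrig1 and Lgr6 1 of 8 did not overlap in WT (Il20ra, higher in Lrig1; background 18.6%) and 1 of 8 in Pelo -/- (Il20rb, lower in Lrig1 by -0.36 ± 0.37; background 9.68%). These counts include the contrasts behind the choice of genes, so nothing is read from them. The median log2 difference of the members against Lgr5 was 2.42, 2.72, 1.05 and 1.26 in WT Lrig1, WT Lgr6, Pelo -/- Lrig1 and Pelo -/- Lgr6, where the median of all genes was -0.99, -0.49, -0.64 and -0.61. That median shifted to -2.005, -1.38, -1.22 and -1.27 without scaling, to -1.36, -0.996, -0.75 and -0.77 under RLE size factors and to about 0 (-0.06, -0.04, -0.03 and -0.05) among genes of mean CPM of at least 5. Without WT Lgr5 replicate 3 the WT Lrig1 and WT Lgr6 values were 5.63 and 5.53 for Ifngr1, 7.98 and 6.84 for Il20ra, 2.81 and 2.74 for Il20rb and 2.94 and 3.25 for Il10rb. The scaling moved every member against Lgr5. Without it the 8 values shifted by -1.005 to -0.91 in WT Lrig1, -0.96 to -0.82 in WT Lgr6, -0.64 to -0.43 in Pelo -/- Lrig1 and -0.70 to -0.56 in Pelo -/- Lgr6, and with a minimum mean CPM of 5, which 5 of the 8 passed, by -0.91 to -0.60, -0.93 to -0.63, -0.49 to -0.42 and -0.56 to -0.51. In WT Lrig1 the unscaled values were 4.54 for Ifngr1, 6.87 for Il20ra, 2.05 for Il20rb, 1.98 for Il10rb, 0.99 for Ifngr2 and 0.22 for Ifnar2. Ifnar1 in WT Lgr6 turned from 0.16 to -0.66 without scaling and its value in Pelo -/- Lgr6 from 0.24 to -0.37. Over all alternatives Ifngr1, Ifngr2, Il20ra, Il20rb and Il10rb kept their sign against Lgr5 (0 changes of sign in each), and Ifnar1, Ifnar2 and Il22ra1 did not (19, 2 and 3 changes). Single libraries moved some values further. Without Pelo -/- Lgr5 replicate 2 Il20ra was 9.16 in Pelo -/- Lrig1 and 8.80 in Pelo -/- Lgr6, and without Pelo -/- Lrig1 replicate 3 Il10rb was 0.0893 in Pelo -/- Lrig1. Ifnar1 in WT Lrig1 was -1.40 without WT Lrig1 replicate 1 and 0.53 without replicate 2, and Ifnar2 in Pelo -/- Lgr6 was -1.09 without Pelo -/- Lgr6 replicate 1.

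Levels of different genes were compared as CPM per kilobase of merged exons. In both Lrig1 groups the order was Ifngr1, Il20ra, Il20rb and Ifngr2, each with a range apart from the next, and then Ifnar1, Il10rb and Ifnar2 with overlapping neighbours and Il22ra1 last. In WT Lrig1 these means were 109 for Ifngr1, 61.7 for Il20ra, 32.2 for Il20rb, 7.64 for Ifngr2, 2.80 for Ifnar1, 2.04 for Il10rb, 1.88 for Ifnar2 and 0.138 for Il22ra1. Ifngr1 averaged 126 in Pelo -/- Lrig1, 104 in WT Lgr6 and 108 in Pelo -/- Lgr6. In Lgr6 cells Il20ra and Il20rb overlapped, at 29.3 and 33.3 in WT and 48.2 and 47.3 in Pelo -/-.

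The order differed in Lgr5 cells, where Ifngr1 and Il20ra did not lead. Per kilobase, Il20rb was highest in WT Lgr5 at 4.07, followed by Ifnar1 at 3.02, Ifngr1 at 2.34, Ifngr2 at 2.05 and Ifnar2 at 0.848, each overlapping the next in this order. Il22ra1, Il20ra and Il10rb, at 0.342, 0.264 and 0.263, overlapped each other in turn, and the range of Ifnar2 lay apart from that of Il22ra1. In Pelo -/- Lgr5 Il20rb stood apart at 8.13, followed by Ifngr1 at 3.92, Ifngr2 at 2.83, Ifnar1 at 2.56, Ifnar2 at 1.51, Il10rb at 0.766 and Il22ra1 at 0.328, with Il20ra last at 0.207. With the longest transcript as length, 2 members changed place in Pelo -/- Lgr6, 3 in WT Lgr5 and 2 in Pelo -/- Lgr5.

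**Figure D2:**
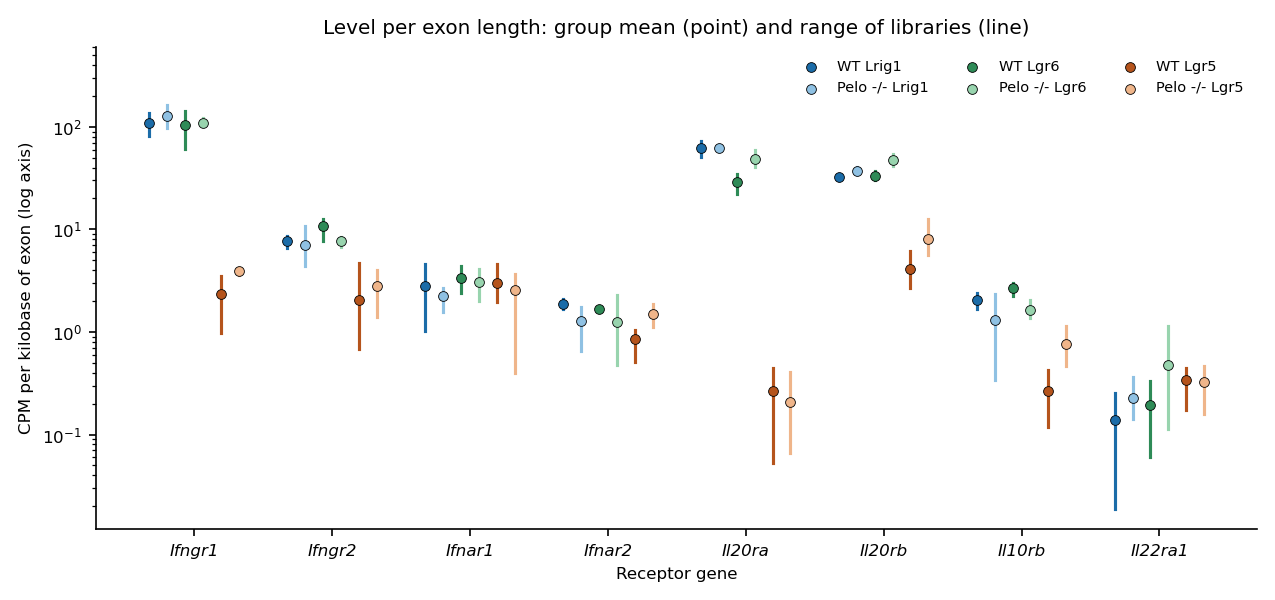
Mean level of each receptor gene as CPM per kilobase of merged exons (log axis) in the 6 groups, with lines for the range over libraries. Ifngr1 leads in Lrig1 and Lgr6 cells at 104 to 126, and Il20rb leads in Lgr5 cells at 4.07 in WT and 8.13 in Pelo -/-.

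The balance between chains that pair in a receptor differed between pairs, and for some pairs also between populations. Per kilobase, Ifngr1 exceeded Ifngr2 by 7.85 to 21.9 times (median 14.98) in the 11 Lrig1 and Lgr6 libraries and stood at 0.208 to 5.15 times Ifngr2 (median 2.12) in the 6 Lgr5 libraries. Il20ra was near its partner Il20rb in the former, at 0.663 to 2.42 times (median 1.16), and far below it in the latter, at 0.00523 to 0.108 times. The ratio of Ifnar1 to Ifnar2 overlapped between the sets, at 0.494 to 4.15 and 0.349 to 4.58. Il20ra exceeded Il22ra1, the other chain that pairs with Il20rb, by 39.9 to 2689 times in Lrig1 and Lgr6 libraries, a ratio that rests on very few Il22ra1 counts, and lay below it in all 6 Lgr5 libraries, where both were near the floor. These ratios restate the levels above and carry no test.

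Most members lie in 2 clusters of receptor genes (GRCm38, GENCODE M21). On chromosome 10, plus strand, Ifngr1 spans 19591949 to 19610229 and Il20ra 19712570 to 19760053, 102340 bp apart, with Il22ra2 at 19621998 to 19634681 as the 1 protein-coding gene between them. On chromosome 16, plus strand, Ifnar2 spans 91372783 to 91405589, Il10rb 91406164 to 91425834, Ifnar1 91485238 to 91507441 and Ifngr2 91547072 to 91565623, with gaps of 574, 59403 and 39630 bp. Il20rb lies on chromosome 9, minus strand, from 100457719 to 100486788, and Il22ra1 on chromosome 4, plus strand, from 135728172 to 135752140. A read-through gene model, Gm21970, shares 158 bp of exon with Ifnar2 and 167 bp with Il10rb and had 0 counts in every library, so how shared reads were assigned there is uncertain. An antisense model, Gm33332, lies over Il20ra and shares 0 bp of exon with it.

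Il22ra2, the gene between Ifngr1 and Il20ra, encodes a secreted receptor that binds IL-22 and keeps it from its cell-surface receptor, and it was not a member. It had 189 and 141 CPM in WT Lrig1, 186, 219 and 162 CPM in Pelo -/- Lrig1, 92.6, 58.8 and 187 CPM in WT Lgr6, and 248, 128 and 143 CPM in Pelo -/- Lgr6. Lgr5 libraries had 8.99, 0.0641 and 0.656 CPM in WT and 0, 3.47 and 0.859 CPM in Pelo -/-. All 11 libraries lay above all 6, and Il22ra2 was higher by 5.68 ± 1.43 in WT Lrig1 (edgeR adjusted p = 0.0203), 5.13 ± 1.36 in WT Lgr6 (0.0241), 7.05 ± 1.49 in Pelo -/- Lrig1 (0.0104) and 6.93 ± 1.48 in Pelo -/- Lgr6 (0.00898). Il22ra2 comes from a list chosen with earlier results of these data known, so nothing is concluded from these p-values. The WT Lrig1 call was lost without WT Lrig1 replicate 1 (adjusted p = 0.0566) or 2 (0.0716), without scaling (0.0507) and with only the compared groups (0.0723). The WT Lgr6 call was lost without scaling (0.065), without a filter (0.0541) and with the replicate block (0.0506), and the Pelo -/- calls without Pelo -/- Lgr5 replicate 3 (0.0559 in Lrig1 and 0.0505 in Lgr6).

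Genes flanking the clusters varied. Beyond Ifngr1, Tnfaip3, an inhibitor of NF-kappaB signalling, stood at 33.1 to 244 CPM in the 11 libraries and 3.12 to 22.6 CPM in the 6 Lgr5 libraries, and beyond Il20ra the peroxisome import gene Pex7 overlapped, at 34.4 to 72.7 and 19.4 to 76.2 CPM. The nearer flanks, Olig3 beside Ifngr1 and Slc35d3 beside Il20ra, were near the floor, with at most 1.53 and 2.51 CPM in any library. On chromosome 16 Il10rb, Ifnar1 and Ifngr2 all overlapped between the sets, with medians outside and inside Lgr5 of 7.78 and 1.70 CPM for Il10rb, 15.9 and 18.2 CPM for Ifnar1 and 29.2 and 8.35 CPM for Ifngr2. Of the flanks there, Tmem50b beside Ifngr2 overlapped too, at 35.7 to 73.1 and 14.4 to 46.1 CPM. Its log2 differences were 1.09 ± 0.46 in WT Lrig1 and 1.33 ± 0.43 in WT Lgr6 against WT Lgr5. Dnajc28 beyond it and Olig1 beside Ifnar2 were low, with at most 7.16 and 4.55 CPM in any library.

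**Figure D3:**
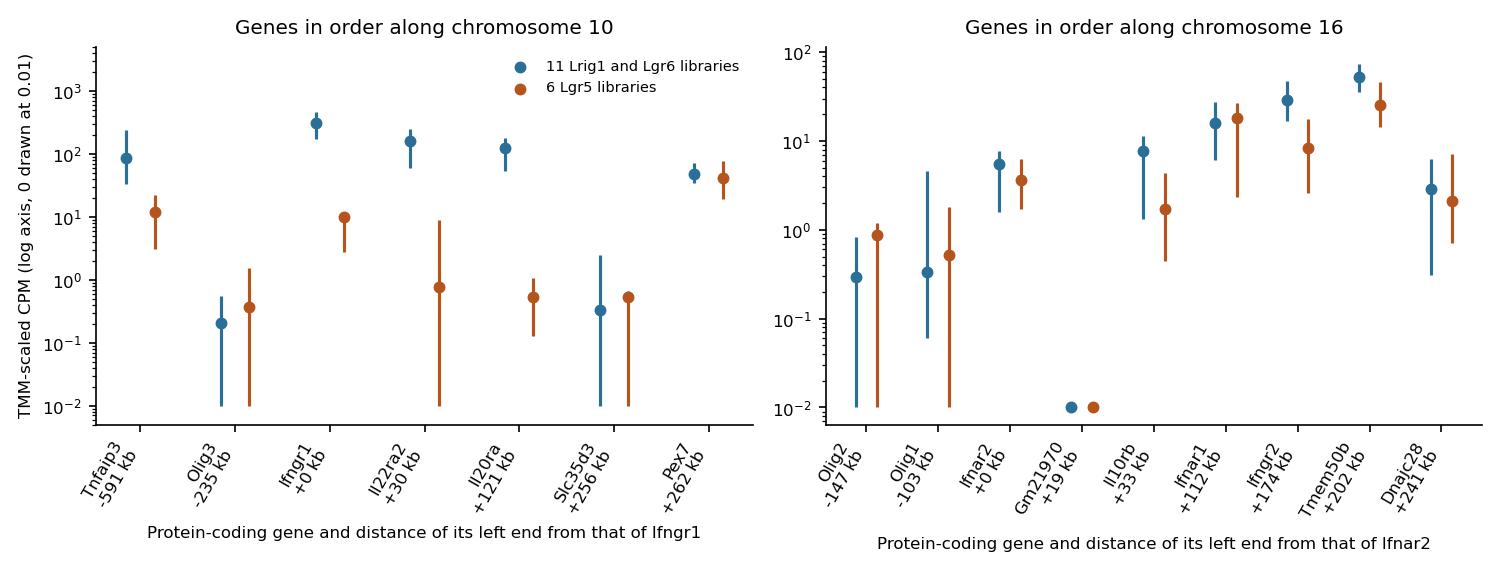
Levels of genes in and beside the chromosome 10 and chromosome 16 receptor clusters, evenly spaced in order along the chromosome. Labels give the distance from the start of Ifngr1 or of Ifnar2, and the spacing is not to scale. Points are medians and lines ranges over the 11 Lrig1 and Lgr6 libraries and the 6 Lgr5 libraries (CPM, log axis, 0 drawn at 0.01). Ifngr1, Il22ra2 and Il20ra are separate between the sets, with medians of 308, 162 and 123 CPM against 10.1, 0.757 and 0.531 CPM, while Ifnar1 overlaps.

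Profiles like those of Ifngr1 and Il20ra were sought among 7713 protein-coding genes of mean log2 CPM of at least 3, by the root mean square difference of centred log2 CPM over the 17 libraries, where 0 would be the same profile. For Ifngr1 the nearest were Ppp2r2c, a regulatory subunit of protein phosphatase 2A (0.615; 39.2 to 87.2 CPM in Lrig1 and Lgr6 libraries and 1.35 to 3.39 CPM in Lgr5), the actin-severing gene Scin (0.659), the class I histocompatibility gene H2-Q7 (0.667), the protease Ctsh (0.684) and Prr13 (0.690). For Il20ra they were Npl, a lyase of sialic acid (0.751; 51.1 to 175 and 0.192 to 1.59 CPM), Oas1f (0.897), Skint7 (0.928), the chitinase Chit1 (0.982) and Clu (0.995). H2-Q7, Oas1f and Skint7 have near-identical relatives, so their counts are uncertain. Among receptor genes, Il22ra2 ranked 15th for Il20ra (1.21), Ifngr1 26th (1.38) and Il20rb, the partner of Il20ra, 424th (2.57). For Ifngr1, Il20rb ranked 266th (1.29), Il20ra 360th (1.38), its partner Ifngr2 1281st (1.81) and Il22ra2 1426th (1.84). The measure weighs the size of the gap between populations as much as its shape.

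No member differed between genotypes past the threshold in any population. The question was whether receptor levels differ between genotypes within Lrig1, Lgr6 or Lgr5 cells, and edgeR called 0 of 8 in each at an adjusted p under 0.05, as did DESeq2 and limma-voom. The background was 0.0% of all genes in Lrig1, 0.0% in Lgr6 and 0.0197% in Lgr5, so few genes of any kind were called and little can be read from the 0. At an unadjusted p under 0.05 there were 0 members in Lrig1, 1 in Lgr5 and 0 in Lgr6, where 3.64%, 6.25% and 3.88% of all genes were under it.

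Il20rb had the smallest p of the members. Among Lgr5 libraries it had 25.5, 23.8 and 53.4 CPM in Pelo -/- and 25.9, 14.04 and 11.4 CPM in WT, ranges that overlapped, with a log2 difference of 1.00 ± 0.38 (edgeR adjusted p = 0.641). The difference was 0.53 without Pelo -/- Lgr5 replicate 3 and 1.42 without WT Lgr5 replicate 1, and its adjusted p ran from 0.262 to 0.988 over the alternatives. In Lgr6 cells it was 0.51 ± 0.37 and in Lrig1 cells 0.20 ± 0.41, with Pelo -/- libraries above WT libraries in both (edgeR adjusted p = 1 in each). Averaged over the populations it was 0.57 ± 0.22 (edgeR adjusted p = 0.977).

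Ifngr1 in Lgr5 cells stood at 10.1 to 11.9 CPM in Pelo -/- and 2.76 to 10.005 CPM in WT, without overlap, and its log2 difference of 0.74 ± 0.41 did not pass (edgeR adjusted p = 0.866). In Lrig1 and Lgr6 cells it was 0.22 ± 0.45 and 0.06 ± 0.40 (edgeR adjusted p = 1 in each). Il20ra in Lgr6 cells stood at 98.01 to 143 CPM in Pelo -/- and 53.4 to 84.7 CPM in WT, again without overlap (0.72 ± 0.46, edgeR adjusted p = 1), and it had -0.00 ± 0.52 in Lrig1 and -0.39 ± 0.59 in Lgr5. Ifnar2 in Lgr5 cells stood at 3.76 to 6.23 CPM in Pelo -/- and 1.69 to 3.46 CPM in WT (0.83 ± 0.77, edgeR adjusted p = 0.995). Ifngr2 ran from -0.50 ± 0.59 in Lgr6 to 0.47 ± 0.60 in Lgr5, and Ifnar1 from -0.33 ± 0.73 in Lrig1 to -0.15 ± 0.66 in Lgr6. The value of Il22ra1 in Lgr6, 1.28 ± 1.08, became -0.44 without Pelo -/- Lgr6 replicate 3.

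Il10rb had values of opposite sign in Lgr5 and in the other populations. Among Lgr5 libraries it had 4.34, 1.77 and 2.63 CPM in Pelo -/- beside 1.62, 0.449 and 0.929 CPM in WT (1.54 ± 0.79, edgeR adjusted p = 0.838). Among Lgr6 libraries it had 7.78, 5.87 and 5.15 CPM beside 8.59, 11.3 and 10.7 CPM (-0.70 ± 0.76, edgeR adjusted p = 1), and in Lrig1 cells the value was -0.63 ± 0.84 (edgeR adjusted p = 1). Groups did not overlap in Lgr5 or Lgr6. The difference of the Pelo effect between Lgr6 and Lgr5 was -2.24 ± 1.10 (edgeR adjusted p = 1) and that between Lrig1 and Lgr5 was -2.17 ± 1.15 (edgeR adjusted p = 0.933), so neither passed.

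Over the set, groups of the 2 genotypes did not overlap for 1 of 8 members in Lrig1 (Il20rb, higher; background 18.9%, 8.17% higher and 10.7% lower), 3 of 8 in Lgr5 (Ifngr1, Ifnar2 and Il10rb, higher; background 8.21%, 3.8% higher and 4.41% lower) and 3 of 8 in Lgr6 (Il20ra and Il20rb higher, Il10rb lower; background 8.24%, 2.5% higher and 5.74% lower). Of the differences between populations in the Pelo effect, edgeR called 0 of 8 members in each of the 3, where it called 0.0% of all genes.

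**Figure D4:**
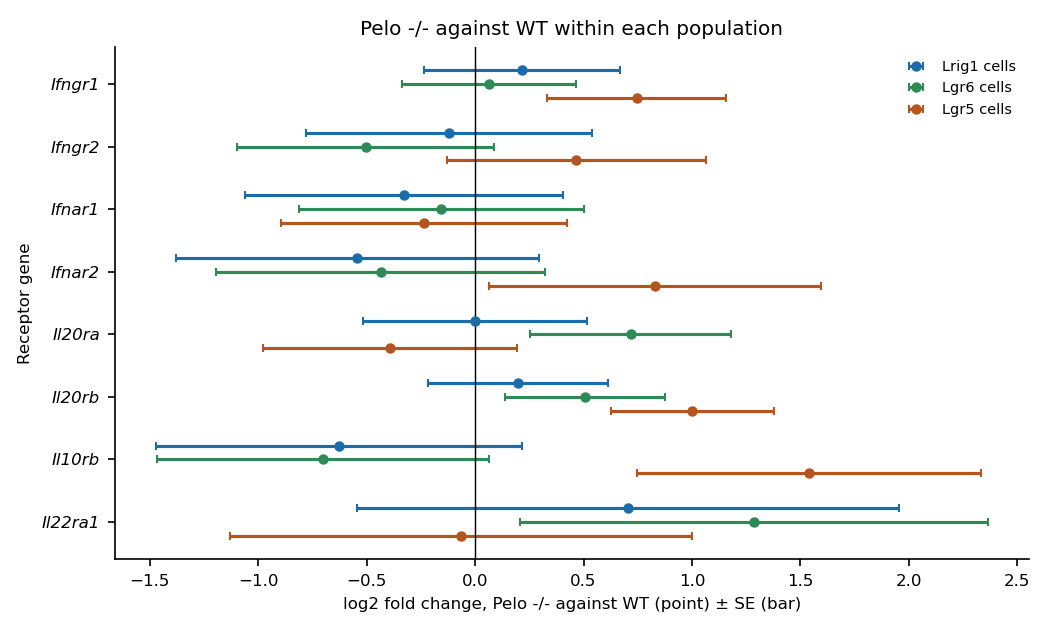
Log2 fold change of Pelo -/- against WT (points, with SE as bars, edgeR) for the 8 receptor genes in Lrig1, Lgr5 and Lgr6 cells; 0 marks no difference. Values run from -0.70 for Il10rb in Lgr6 to 1.54 for Il10rb in Lgr5, and none passed the adjusted threshold.

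Genes around the receptors were read from 7 lists of 143 genes, of which 141 were in the table and 121 were tested. The lists too were chosen with earlier results of these data known. Their shares of calls beside those of all genes are therefore a description, and nothing is concluded from them. In WT Lrig1 against WT Lgr5 23 were called higher and 0 lower, or 19.0% of those tested, where 11.1% of all genes were called (9.09% higher and 1.99% lower). In WT Lgr6 against WT Lgr5 the counts were 25 and 0, or 20.7% against 12.2% (10.6% higher and 1.57% lower). With Pelo -/- they were 17 and 0 in Lrig1, or 14.05% against 7.85% (5.77% higher and 2.08% lower), and 23 and 1 in Lgr6, or 19.8% against 9.95% (7.23% higher and 2.72% lower). Between Lrig1 and Lgr6 edgeR called 0 in either genotype, as it called 0.0% of all genes, and 18 in WT and 9 in Pelo -/- had an unadjusted p under 0.05, where 4.67% and 4.2% of all genes did. The split depended on the scaling: without scaling it was 7 higher and 3 lower in WT Lrig1, 15 and 3 in WT Lgr6, 10 and 1 in Pelo -/- Lrig1 and 14 and 4 in Pelo -/- Lgr6, and by DESeq2 24 and 15, 26 and 8, 21 and 5, and 25 and 6. Over all genes 82.1%, 87.2%, 73.5% and 72.6% of the calls were higher than in Lgr5, and 38.7%, 48.7%, 43.7% and 42.1% without scaling.

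Ligands were hardly present in these sorted cells. Of 26 ligand genes 8 were tested and 0 called in any comparison of populations, although under an alternative up to 2 were called lower in WT Lrig1 and 1 higher in WT Lgr6. Ifnk, the interferon of keratinocytes, reached 15.7 CPM (312 counts) in WT Lgr6 replicate 2 and was at 0 counts in 7 libraries, and Ifng, the ligand of Ifngr1, had at most 6 counts. The IL-20 receptor ligands Il19, Il20 and Il24 reached 0.587, 1.42 and 0.811 CPM, each in an Lgr5 library. Of the 4 other class II receptors Il22ra2 was the one called in each comparison with Lgr5, while Il10ra stood at 0 to 1.32 CPM in Lrig1 and Lgr6 and 1.29 to 3.50 CPM in Lgr5 libraries and Ifnlr1 at 6.27 to 37.0 and 1.97 to 16.5 CPM.

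Signal carriers included several genes higher outside Lgr5 cells. Of 12 kinases and transcription factors, 4 were called higher in WT Lrig1 and 5 in WT Lgr6 against WT Lgr5, and 2 and 3 in Pelo -/-. These were 33.3%, 41.7%, 16.7% and 25% of the list, beside 11.1%, 12.2%, 7.85% and 9.95% of all genes. Over the alternatives the count in WT Lrig1 ran from 0 to 5 and up to 1 gene was called lower in each WT comparison. Stat3, the main carrier of IL-20 family signals, stood at 123 to 195 CPM (median 142) in Lrig1 and Lgr6 libraries and 49.0 to 80.1 CPM (median 54.5) in Lgr5 libraries, and was higher by 1.59 ± 0.36 in WT Lrig1 (edgeR adjusted p = 0.00331) and 1.46 ± 0.33 in WT Lgr6 (0.00302). Stat6, the carrier of IL-4 and IL-13 signals, was higher by 1.81 ± 0.39 (0.00243) and 2.14 ± 0.37 (0.000202). The kinase Jak1 was higher by 1.65 ± 0.39 in WT Lrig1 (0.00502), at 453 ± 31.1 against 144 ± 73.0 CPM (SD, n = 2 and 3), and Irf9, a transcription factor of the type I interferon response, by 2.07 ± 0.58 in WT Lgr6 (0.0166). Without WT Lrig1 replicate 2 the WT Lrig1 calls of Stat6, Stat3 and Jak1 were lost (edgeR adjusted p = 0.100, 0.0892 and 0.172), as they were without scaling (0.136, 0.218 and 0.146) and with only the compared groups (0.0774, 0.0615 and 0.0625). The WT Lgr6 calls of Stat3 (0.227 and 0.0962) and Irf9 (0.127 and 0.0825) were lost under the same 2 settings, and at a minimum mean CPM of 5 both Stat3 calls were lost (0.0613 and 0.0867). The Irf9 call was also lost without WT Lgr5 replicate 1 or 3 or WT Lgr6 replicate 1 or 3 (0.0652 to 0.136).

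Negative regulators were mixed, with 4, 3, 3 and 4 of 17 called higher in WT Lrig1, WT Lgr6, Pelo -/- Lrig1 and Pelo -/- Lgr6 against Lgr5, and under an alternative up to 4, 4, 2 and 4 were called lower. The shares called were 23.5%, 17.6%, 17.6% and 29.4%, the last with 1 called lower, beside 11.1%, 12.2%, 7.85% and 9.95% of all genes. Cish, a suppressor of cytokine signals that STAT factors induce, stood at 17.9 to 65.6 CPM (median 39.5) outside Lgr5 and 0.577 to 3.88 CPM (median 1.69) in Lgr5 libraries, and was higher by 4.29 ± 0.60 in WT Lrig1 (edgeR adjusted p = 2.26e-05) and 3.41 ± 0.56 in WT Lgr6 (0.000118). Usp18, which damps the type I interferon receptor, was higher by 3.51 ± 0.88 (0.00898) and 3.06 ± 0.83 (0.0137), and the phosphatase Ptpn1 by 2.13 ± 0.45 in WT Lgr6 (0.00151). Pias1, a SUMO ligase, was higher by 1.98 ± 0.43 in WT Lrig1 (0.00265). The Usp18 call was lost without WT Lrig1 replicate 2 (0.0827) and without WT Lgr6 replicate 3 (0.0985), and that of Pias1 without WT Lrig1 replicate 1 (0.0581) or scaling (0.0929). Both Usp18 calls were also lost without scaling (0.0706 and 0.115) and at a minimum mean CPM of 5 (0.0564 and 0.0860), and the WT Lgr6 one with only the compared groups (0.0632). In Pelo -/- Lgr6 Socs3, the main brake on Stat3, was higher by 2.46 ± 0.51 (0.00191), and Socs5 was lower by -1.43 ± 0.46 (0.0472), a call that held only without WT Lgr5 replicate 1, WT Lgr5 replicate 3 or WT Lgr6 replicate 2 when each of the 17 libraries was left out in turn, and that was lost without a filter (0.187), by limma-voom (0.0560) and with the replicate block (0.0660).

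Genes that interferon gamma induces were among those higher outside Lgr5 cells. Of 31 genes 9 were called higher in WT Lrig1, 11 in WT Lgr6, 7 in Pelo -/- Lrig1 and 9 in Pelo -/- Lgr6 against Lgr5, and 0 lower. These were 29%, 35.5%, 22.6% and 29% of the list, beside 11.1%, 12.2%, 7.85% and 9.95% of all genes. Under an alternative up to 4, 1, 2 and 4 were called lower. The list's median log2 difference was 1.496, 1.83, 1.10 and 0.74, beside -0.99, -0.49, -0.64 and -0.61 for all genes. Among genes of mean CPM of at least 5, a filter not applied to the list's medians, that background was -0.06, -0.04, -0.03 and -0.05. A higher share was not particular to this list. Of 13 keratinocyte markers 69.2%, 69.2%, 53.8% and 61.5% were called higher in the same comparisons. Tap1, which carries peptides to class I molecules, stood at 71.7 to 181 CPM (median 114) and 4.46 to 16.7 CPM (median 12.9), and was higher by 3.47 ± 0.47 in WT Lrig1 (edgeR adjusted p = 1.72e-05) and 3.43 ± 0.45 in WT Lgr6 (1.01e-05). Psmb8, a subunit of the immunoproteasome, stood at 56.5 to 133 CPM (median 69.8) and 0.355 to 11.9 CPM (median 1.74), and was higher by 3.99 ± 0.78 (0.00144) and 4.36 ± 0.76 (0.000407). Psme2, a proteasome activator with near-identical copies, was higher by 3.57 ± 0.56 (8.52e-05) and 3.15 ± 0.52 (0.000139). Psmb9, another immunoproteasome subunit, and the proteasome activator Psme1 were called in both WT comparisons too, named here after their values were seen, and their WT Lrig1 calls were lost without WT Lrig1 replicate 2 (0.142 and 0.135) and without scaling (0.0870 and 0.0554), that of Psmb9 without a filter (0.0736), that of Psme1 with only the compared groups (0.0529) and that of Psme1 in WT Lgr6 without WT Lgr6 replicate 3 (0.0733). The chemokines Cxcl9 and Cxcl10 were not called in these comparisons. The count in WT Lrig1 was between 3 and 9 over the alternatives other than leaving out a library and between 5 and 10 without a library, and it was 7 in WT Lrig1 and 8 in WT Lgr6 without WT Lgr5 replicate 3.

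Type I interferon targets held few calls. Of 32 genes 3, 2, 2 and 3 were called higher and 0 lower, with medians of -1.12, 0.31, 0.51 and 0.15. The WT shares, 9.38% and 6.25%, lay below the 11.1% and 12.2% of all genes called, and under an alternative up to 3 were called lower in each WT comparison. The Pelo -/- shares were 6.25% in Lrig1 and 9.38% in Lgr6, beside 7.85% and 9.95% of all genes. Ifitm3, a membrane protein that blocks virus entry, stood at 387 to 1131 CPM (median 497) outside Lgr5 and 4.32 to 38.6 CPM (median 24.5) in Lgr5 libraries, and was higher by 4.93 ± 0.57 in WT Lrig1 (edgeR adjusted p = 3.01e-06) and 5.33 ± 0.56 in WT Lgr6 (7.39e-07). Ifi27 was higher by 2.58 ± 0.49 (0.000629) and 2.82 ± 0.46 (0.000123). Isg15, a ubiquitin-like protein and a standard readout of type I interferon, was at most 2.86 CPM in any library. It is named outside the rule for naming genes, so nothing is read from its level. Oas1a, a sensor of double-stranded RNA with close paralogs, was called in WT Lrig1 (3.14 ± 0.99, 0.0385), a call lost without any of the 5 libraries compared, under RLE (0.0705), without scaling (0.134), with the replicate block (0.0558) and with only the compared groups (0.0826).

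Targets of IL-20 and IL-22 in keratinocytes held 2, 3, 2 and 3 calls, all higher, of 17 tested, with medians of -1.02, 1.77, -0.32 and -0.74. The WT shares were 11.8% and 17.6%, beside 11.1% and 12.2% of all genes, and under an alternative up to 1, 0, 2 and 1 were called lower. The Pelo -/- shares were 11.8% in Lrig1 and 17.6% in Lgr6, beside 7.85% and 9.95% of all genes. Krt16, a wound keratin, stood at 8.49 to 399 CPM (median 53.1) outside Lgr5 and 0.142 to 3.52 CPM (median 0.978) in Lgr5 libraries, and was higher by 4.36 ± 1.06 in WT Lrig1 (edgeR adjusted p = 0.0107) and 6.54 ± 1.12 in WT Lgr6 (0.000583). The WT Lrig1 call was lost without WT Lrig1 replicate 2 (0.0851) and without scaling (0.0814). Defb14, an antimicrobial peptide gene, was called in both (0.00688 and 0.0142), at 2.34 and 5.13 CPM in WT Lrig1, 0.0596, 3.38 and 1.14 CPM in WT Lgr6 and 0 counts in all WT Lgr5 libraries. Its WT Lgr6 call was lost without WT Lgr5 replicate 2 or 3 or WT Lgr6 replicate 2 (0.0552 to 0.0692). Fabp5, a fatty acid binding protein of keratinocytes, was higher in WT Lgr6 by 3.74 ± 1.05 (0.0273), a call lost without WT Lgr5 replicate 1, WT Lgr6 replicate 1 or 3, or WT Lrig1 replicate 1 or 2 (0.0537 to 0.0977), without scaling (0.0808) or without a filter (0.140). Krt16 was also higher by 5.12 ± 1.07 in Pelo -/- Lrig1 and 7.17 ± 1.16 in Pelo -/- Lgr6, and the chemokine Cxcl1 by 4.81 ± 1.47 and 6.13 ± 1.53 (edgeR adjusted p = 0.00587, 0.000561, 0.0427 and 0.00967), the Cxcl1 call in Lrig1 being lost without Pelo -/- Lgr5 replicate 1, 2 or 3, Pelo -/- Lrig1 replicate 2 or 3, Pelo -/- Lgr6 replicate 2, or WT Lgr6 replicate 1 or 2 (0.0516 to 0.151). Without scaling the Pelo -/- Lrig1 calls of Krt16 (0.0538) and Cxcl1 (0.0638) were lost, and by limma-voom that of Cxcl1 (0.0897).

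**Figure D5:**
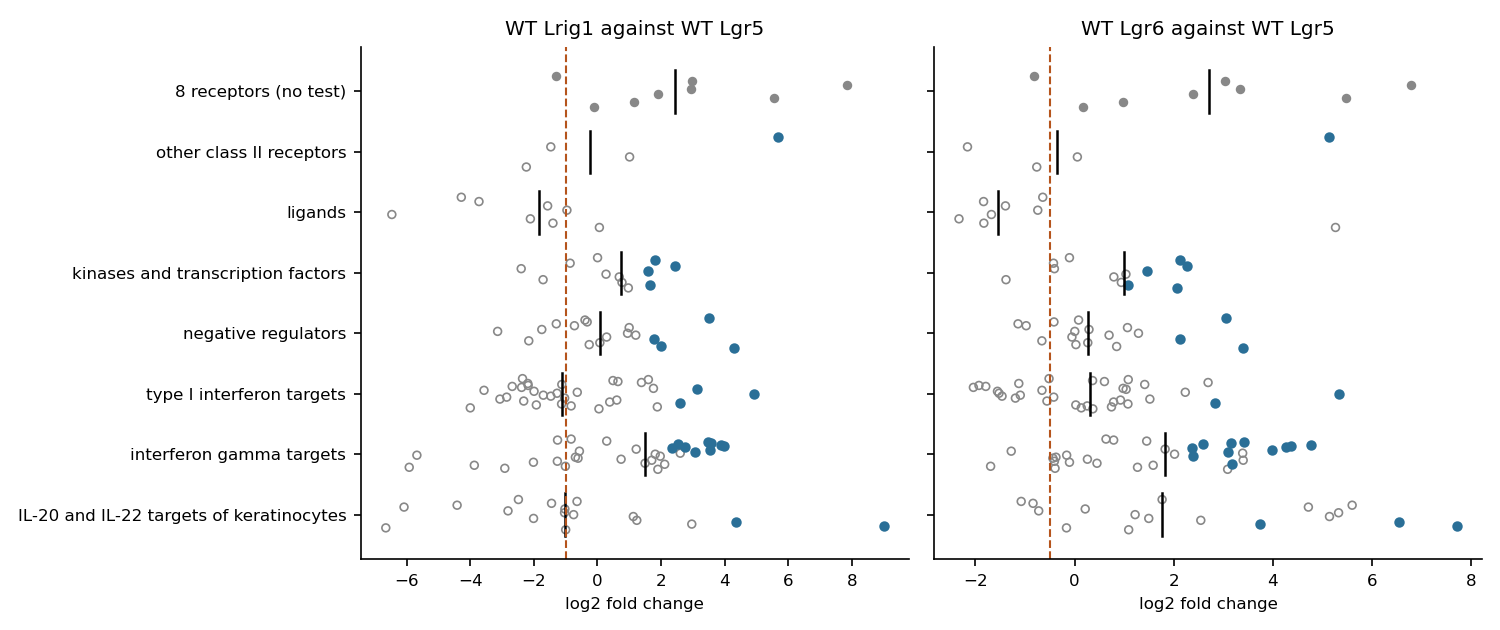
Log2 differences of the tested genes of each list in WT Lrig1 and WT Lgr6 against WT Lgr5; filled blue points passed an edgeR adjusted p under 0.05, open points did not, grey points are the 8 receptors (not tested), black lines are list medians and the dashed line is the median of all genes. The interferon gamma targets hold 9 and 11 filled points with medians of 1.496 and 1.83, and the ligands hold 0.

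With Pelo -/- the pathway lists held 0 calls in each population by edgeR (5, 8 and 18 of 121 genes at an unadjusted p under 0.05 in Lrig1, Lgr5 and Lgr6, and 9 averaged, where 3.64%, 6.25%, 3.88% and 4.96% of all genes were under it). The smallest p in Lrig1 belonged to the chemokine Cxcl9, at 7.79, 1.45 and 14.95 CPM in Pelo -/- and 0.300 and 0 CPM in WT (5.74 ± 1.88, edgeR adjusted p = 1), and then to Cxcl10 (7.77 ± 2.57, adjusted p = 1). In Lgr5 they belonged to Cxcl1, at 0, 0.142 and 0.107 CPM in Pelo -/- and 3.72, 6.22 and 0.328 CPM in WT (-5.27 ± 1.49, edgeR adjusted p = 0.338), and to Stat6, at 34.2, 49.1 and 38.5 CPM against 14.4, 23.7 and 14.4 CPM (1.21 ± 0.36, adjusted p = 0.408). In Lgr6 they belonged to Defb14, at 0 counts in Pelo -/- (edgeR adjusted p = 1), and to Mmp13, whose value of -7.28 ± 1.96 (adjusted p = 1) rested on 57.8 CPM in WT Lgr6 replicate 2. Averaged over the populations they belonged to Mmp13 (-2.87 ± 1.02, edgeR adjusted p = 0.949) and Usp18 (-1.17 ± 0.46, adjusted p = 0.980). DESeq2 called Cxcl9 in Lrig1 (adjusted p = 0.0463) and Cxcl1 in Lgr5 (adjusted p = 0.0101), and edgeR without a filter on low counts called Cxcl1 in Lgr5 (adjusted p = 0.0216).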

How the data were processed

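Bulk RNA-seq of 17 libraries in 6 groups was analysed. The authors deposited whole-number counts per gene, used here as deposited. Per the submitters' processing notes, STAR and edgeR were used with GRCm38 and mm10, and the labels cite Picelli for the library method. The counter, annotation, strand setting and versions were not given in the sources used here. Symbols came from GENCODE M21 (48058 of 48820 identifiers, 762 without a symbol). The WT Lrig1 group had 2 libraries, although the series text speaks of triplicates. No pair of libraries was identical (0 pairs).

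All libraries entered 1 edgeR 4.0.16 quasi-likelihood fit (R 4.3.3, robust, TMM, filterByExpr with minimum count 10 and minimum total 15), which left 30405 genes, and 13 comparisons were made. Calls needed an adjusted p under 0.05 (Benjamini-Hochberg, over all genes tested). The SE of a log2 difference is its size over the square root of F. TMM factors were 0.990 to 1.91 in Lgr5 libraries and 0.688 to 0.964 elsewhere. The method was run on simulated counts with 200 changed genes, drawn from a mean profile common to all libraries. The simulation lacked the difference in composition between Lgr5 and other libraries, so it cannot show how the method handles that difference. DESeq2 1.42.0, limma-voom (limma 3.58.1), RLE, no scaling, other filters, a replicate block, only the compared groups and leaving out each library were alternatives.

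Members and lists were chosen with earlier results of these data known. Named by rule were all 8 members, up to 3 called genes per list and direction with the smallest p in population comparisons, the 2 pathway genes of smallest p in genotype comparisons where none was called, and the 5 profiles most like those of Ifngr1 and Il20ra. Further genes were named outside these rules, among them ligands, other class II receptors, cluster neighbours, Psmb9, Psme1 and Isg15. Promoters came from RefSeq (GRCm38.p6).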

Additional observations from a re-analysis of the deposited data

Results flagged for a closer look

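Il10rb, the chain shared by the IL-22, IL-10 and interferon lambda receptors, had estimates of the Pelo effect of opposite sign in different populations. None of these estimates, and no difference between them, passed the adjusted threshold. All 3 Pelo -/- Lgr5 libraries (1.77 to 4.34 CPM) lay above all 3 WT Lgr5 libraries (0.449 to 1.62 CPM), and all 3 Pelo -/- Lgr6 libraries (5.15 to 7.78 CPM) lay below all 3 WT Lgr6 libraries (8.59 to 11.3 CPM). The test of the difference between these effects gave -2.24 ± 1.10 in log2 (edgeR adjusted p = 1), and by DESeq2 the adjusted p was 0.653. The value lay between -2.74 and -1.76 when a library was left out and between -2.33 and -1.92 under the other alternatives. Il10rb had only 7 to 74 counts a library in Lgr5 cells and 24 to 225 in the others. Counts of Il10rb are also uncertain where a read-through gene model shares 167 bp of its exons.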

How the results depend on the processing

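Of 2098 values of the members under the alternatives 113 changed sign, 64 of them genotype effects and 49 differences between populations, and 0 of 8 members were called between genotypes under every one. For the 4 comparisons with Lgr5, members called are not counted. Pathway genes called in WT Lrig1 against WT Lgr5 (23) were 10 without scaling, 39 by DESeq2, 14 with only the compared groups and 11 to 26 when a library was left out (11 without WT Lrig1 replicate 2). In Pelo -/- Lrig1 (17) they were 11 without scaling, 26 by DESeq2 and 11 to 19 (11 without Pelo -/- Lgr5 replicate 2). In WT Lgr6 (25) they were 18 to 34 and 19 to 26, and in Pelo -/- Lgr6 (24) 18 to 31 and 16 to 25. The cause of these changes of sign was not tested. Among populations they included Ifnar1 in WT Lgr6 against Lgr5 (0.16 to -0.66 without scaling) and Il22ra1 in Pelo -/- Lgr6 against Lgr5 (0.53 to -1.20 without Pelo -/- Lgr6 replicate 3). The genotype effects that changed sign were the following. Il20ra in Lrig1 (-0.00) became 0.0369 by DESeq2 and RLE, 0.0351 by limma-voom, 0.0560 at a minimum mean CPM of 5, 0.0537 without a filter, 0.199 without scaling, 0.0891 with only the compared groups and 0.0431 with the replicate block. By limma-voom Ifnar1 in Lrig1 was 0.0457, averaged Ifngr2 0.0991 and averaged Il10rb -0.0443, and the Lrig1 minus Lgr6 effects were -0.303 for Il10rb and 0.515 for Il22ra1. Without scaling Ifngr2 in Lrig1 was 0.0455. With the replicate block averaged Ifngr2 was 0.00801 and Il22ra1 in Lgr5 0.0142. Leaving out a library gave these ranges. Ifnar1 ran from -0.39 to 0.25 averaged, -0.60 to 0.27 in Lgr5, -0.43 to 0.0827 in Lgr6 and -0.87 to 1.05 in Lrig1, and averaged Ifnar2 from -0.32 to 0.0779. Ifngr1 ran from -0.20 to 0.55 in Lgr6 and -0.0126 to 0.54 in Lrig1. Ifngr2 ran from -0.20 to 0.47 averaged, -0.0144 to 1.87 in Lgr5 and -0.58 to 0.225 in Lrig1. Il10rb ran from -0.16 to 0.24 averaged and -0.62 to 0.52 for Lrig1 minus Lgr6. Il20ra ran from -0.20 to 0.29 averaged, -1.31 to 0.15 in Lgr5 and -0.0848 to 0.20 in Lrig1. Il22ra1 ran from -0.46 to 0.26 in Lgr5, -0.44 to 1.95 in Lgr6, -0.0533 to 3.31 in Lrig1, -0.37 to 2.05 for Lgr6 minus Lgr5 and -1.58 to 1.78 for Lrig1 minus Lgr6. The labels do not say whether replicate numbers pair the libraries. Within a population, same-numbered libraries of the 2 genotypes correlated in their deviations from group means between -0.101 and 0.249. With 2 or 3 libraries a group these values cannot decide whether they were paired. With the replicate block 0 members were called between genotypes. Against Lgr5 it called 22, 23, 14 and 20 pathway genes in WT Lrig1, WT Lgr6, Pelo -/- Lrig1 and Pelo -/- Lgr6. Depth limits Il22ra1 everywhere and Il20ra and Il10rb in Lgr5 cells, where Il10rb had 7 to 74 counts a library.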

Other observations

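Il22ra2, which encodes the soluble antagonist of IL-22, exceeded the cell-surface chain Il22ra1 per kilobase by 50.3 to 3004 times (median 302) in the 11 Lrig1 and Lgr6 libraries. In the 6 Lgr5 libraries the ratio ran from 0 to 8.05 (median 0.809), and it was above 1 in 2 of them. Il22ra1 had 1 to 55 counts a library, so single ratios are imprecise. These are values of genes that the deposited libraries measured and no test was made of them.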
